A study of Mus musculus with 4 samples.

Results

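The glutathione and antioxidant enzymes were defined by gene symbol. They comprised the glutathione transferases of the alpha, mu, pi, theta, omega and kappa classes, the microsomal glutathione transferases, the glutathione peroxidases, the peroxiredoxins with sulfiredoxin, the superoxide dismutases with catalase, the enzymes of glutathione synthesis and reduction, the thioredoxins with their reductases, and the genes Nfe2l2, Keap1, Nqo1 and Hmox1. The symbols matched 56 of the 55487 genes listed, and 51 of the 56 were among the 22485 genes that passed the filter on low counts. The rule reads symbols and no measured value.

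RNA was sequenced from whole mammary fat pad (MFP), the fat depot in which the mammary gland lies and in which the study grew melanomas, to compare young with aged stroma. The labels describe mice of the strain c57b/6j at 8 weeks (young, n = 2) and 14 months (aged, n = 2), with no transgene, tumour or treatment named for either group. The study's methods describe its mice as female and of strain J, but name C57BL/6NCrl for the mice injected in the fat pad. The sources thus differ on the substrain. The samples are called biological replicates without the number of animals behind each one. Because whole tissue was lysed, every value below is a level over all its cells, and fewer cells of a type cannot be told apart from less RNA per cell.

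Glutathione is a small thiol that cells keep in millimolar amounts and spend on toxic compounds and peroxides. Glutathione transferases attach it to electrophiles such as the aldehydes left by lipid oxidation, glutathione peroxidases use it to reduce peroxides, and glutathione reductase restores it with NADPH. Peroxiredoxins do similar work with thioredoxin, superoxide dismutases and catalase remove superoxide and hydrogen peroxide, and the transcription factor Nrf2 (gene Nfe2l2), held in check by Keap1, induces many of these genes. Adipose tissue stores large amounts of oxidisable lipid, and its fat cells carry much of this machinery.

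Total counts lay between 68803304 and 98402403 per library, so that 3 counts, taken as the floor of detection, amounted to at most 0.0407 CPM, the unit used throughout for counts relative to the library total after TMM scaling. Cell type markers differed between the ages. Summed over 8 skeletal muscle markers, the aged samples had 20162 and 38382 CPM and the young samples 5661 and 8606 CPM, with 8 of 8 markers higher in both aged samples. The 6 adipocyte markers summed to 10018 and 7843 CPM in the aged and 6006 and 6354 CPM in the young samples, again with 6 of 6 higher in both aged samples, and the 5 erythroid markers to 212 and 157 CPM against 72.7 and 81.5 CPM. Over all genes tested, 23.3% were higher in both aged samples. No marker of these 3 lists was at 0 in any sample, and their part in the results below was not tested.

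The enzymes took 0.489% and 0.421% of the aged samples' counts and 0.383% and 0.466% of the young samples' counts. Their summed level was 5024 and 4648 CPM in the aged and 3625 and 4341 CPM in the young MFP. The groups did not overlap in this sum, but did in the share of raw counts. A single gene, Gpx3, made up between 19.0% and 30.4% of the enzymes' counts, and it was high in aged sample 1 and young sample 2. Between replicates, the median absolute difference in log2 CPM was 0.31 in the aged and 0.20 in the young samples over the enzymes, and 0.23 and 0.40 over all genes tested.

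With edgeR's quasi-likelihood test, adjusted after Benjamini and Hochberg over all 22485 genes, the adjusted p-values of the 51 enzymes ran from 0.360 to 0.999. At a threshold of 0.05, 0 enzymes and 0 genes (0%) were called. At an unadjusted p under 0.05, 11 enzymes were higher in the aged MFP and 0 were lower, where 7.24% of all genes tested were higher and 3.31% lower. DESeq2, the tool the study's methods name, called 4 enzymes higher in the aged MFP and 0 lower, where it called 3.95% of the 21984 genes to which it gave an adjusted p, 3.24% higher and 0.71% lower. In the exact two-sided permutation test, 2 samples against 2 cannot give a p below 0.333.

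Most of the 51 enzymes had the higher mean in the aged MFP. Their log2 fold changes (aged over young) were above 0 for 43 and below 0 for 8, with a median of 0.26, whereas 47% of all genes tested were above 0 and their median was -0.04. Both aged samples lay above both young samples for 24 enzymes and below them for 2, and the ages overlapped for 25. Over all genes tested these shares were 23.3% and 22.8%. Scaling by total counts alone lowered the median of all genes by more than 0.1, to -0.22, and that of the enzymes to 0.07. With that scaling 29 of the 51 enzymes were above 0 and 22 below, 14 having changed sign, and 19 lay above and 4 below without overlap. The shares of all genes without overlap are given for TMM scaling only.

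The 8 families differed in where their genes lay. The 24 glutathione transferases, of which 21 were tested, had log2 fold changes with a median of 0.51, with 14 higher and 1 lower without overlap and 9 at an unadjusted p under 0.05. The other 32 enzymes, of which 30 were tested, had a median of 0.12, with 10 higher and 1 lower without overlap and 2 at an unadjusted p under 0.05. Over all genes tested, 23.3% were higher and 22.8% lower without overlap, and 7.24% were higher at an unadjusted p under 0.05. The other enzymes' count at that p was thus near the share of all genes. With scaling by total counts the medians were 0.33 for the transferases and -0.066 for the other enzymes, of which 14 were then above and 16 below 0. All 4 genes that DESeq2 called were transferases, where it called 3.24% of all genes with an adjusted p higher. The difference between the families was described and not tested.

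**Figure D1:**
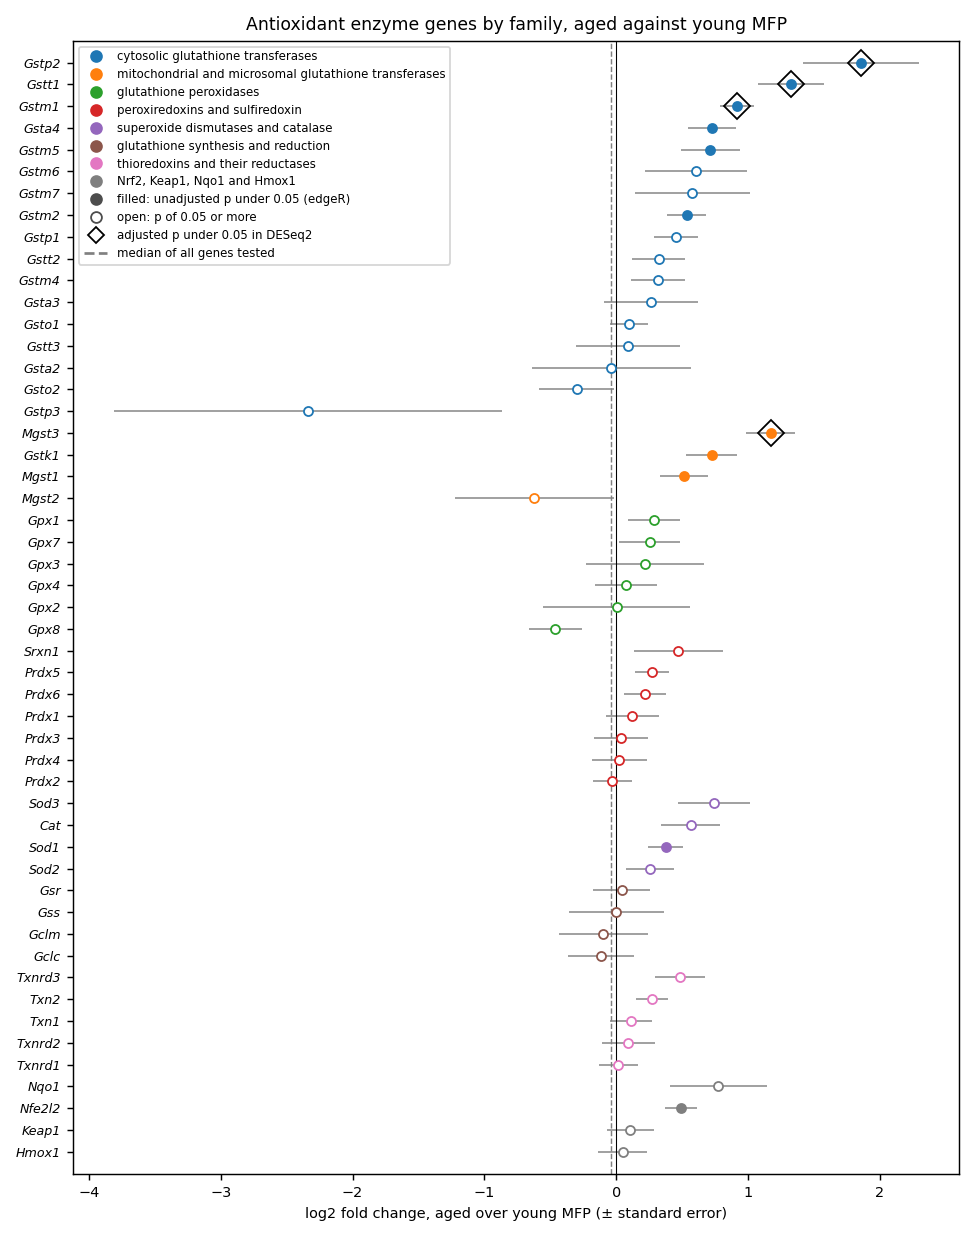
Log2 fold change (aged over young MFP, horizontal axis) of the 51 enzymes tested, each a point with its standard error and coloured by family. Filled points have an unadjusted p under 0.05 in edgeR and diamonds mark the 4 genes called by DESeq2. The transferases at the top reach 1.86 (Gstp2), and 43 of the 51 points lie above 0 with TMM scaling. Points just above 0, among them Gpx4, Prdx1, Prdx3, Txn1, Keap1 and Hmox1, fall below 0 when libraries are scaled by total counts.

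The mu class, cytosolic transferases encoded by 7 neighbouring genes at chr3:107895821-108044894 (GRCm38), had a median log2 fold change of 0.59 over the 6 genes tested. Gstm1 (ENSMUSG00000058135, chr3:108012255-108017973, minus strand), the mu gene with the highest level per exon length, was at 125 and 118 CPM in the aged and 61.6 and 67.3 CPM in the young samples. The lower aged sample was thus well above the higher young one. The means were 122 ± 4.91 and 64.4 ± 4.04 CPM (SD, n = 2), a 1.89-fold difference. Its log2 fold change was 0.92 (SE 0.13), with an adjusted p of 0.360 in edgeR's quasi-likelihood test and of 3.93e-04 in DESeq2.

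Gstm2 was at 47.1 and 51.5 CPM in the aged and 35.4 and 32.6 CPM in the young samples. Its log2 fold change was 0.54 (SE 0.15). Gstm5 was at 18.8 and 24.4 CPM against 12.2 and 14.2 CPM, a log2 fold change of 0.72 (SE 0.22). Neither gene overlapped between the ages, and their adjusted p-values in edgeR's quasi-likelihood test were 0.418 and 0.445. Gstm4, Gstm6 and Gstm7 had lower levels and did not reach an unadjusted p under 0.05, and Gstm7 overlapped between the ages. All 6 mu genes tested had log2 fold changes above 0, from 0.32 to 0.92, and they stayed above 0 under every alternative computed, scaling by total counts included. Where the ages did not overlap, this sign was nearly fixed beforehand with 1 sample left out and adds no support. The log2 fold change of Gstm7 fell from 0.58 to 0.06 without aged replicate 1. Gstm3 had 3 counts or fewer in every sample.

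Mu genes resemble each other, and reads may be exchanged among them. In the annotation, 18.9% of the 50-base windows along the exons of Gstm1 recur in another gene, 14.1% in the pseudogene Gstm2-ps1. The share was 5.65% for Gstm2, and for Gstm5 it was 9.44%, all of it where its exons overlap 4933431E20Rik on the other strand. The strand setting used in counting is not given in the sources used here.

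Gstt1 (ENSMUSG00000001663, chr10:75783813-75798584, minus strand), a theta class transferase that acts on small halogenated compounds, had the highest fold among the transferases with no near-identical copy. It was at 38.8 and 26.3 CPM in the aged and 12.8 and 13.1 CPM in the young samples, so the lower aged value was above both young ones. The means were 32.5 ± 8.85 and 13.0 ± 0.201 CPM (SD, n = 2). The log2 fold change was 1.33 (SE 0.25), with an adjusted p of 0.370 in edgeR's quasi-likelihood test and 0.00156 in DESeq2. It ranged from 1.01 without aged replicate 1 to 1.58 without aged replicate 2. No 50-base window of its exons recurs in another gene. Of its neighbours at chr10:75774115-75837424, Gstt2 was higher in both aged samples, Gstt3 overlapped, and Gstt4 had 2 to 12 counts and was not tested.

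The 3 pi class genes lie within 24.16 kb at chr19:4035407-4059569. Gstp1, the most widely expressed pi transferase, was at 52.1 and 65.5 CPM in the aged and 43.0 and 42.8 CPM in the young samples, and its log2 fold change was 0.45 (SE 0.17). Gstp2 (ENSMUSG00000038155, chr19:4040285-4046023, minus strand) was at 6.87 and 13.9 CPM in the aged and 2.49 and 3.23 CPM in the young samples. Both genes were higher in both aged samples, and aged sample 2 was the highest for each. For Gstp2 the log2 fold change was 1.86 (SE 0.44), the largest of all 51 enzymes, with an adjusted p of 0.406 in edgeR's quasi-likelihood test and 0.00507 in DESeq2. It was 1.27 without aged replicate 2.

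Gstp1 and Gstp2 differ at 12 of 633 coding bases (98.1% identity). The stretch of 60 bases with most of these differences, bases 271 to 330 of each coding sequence, is shown because a read needs such a difference to be assigned to 1 of the genes. It lies at chr19:4036694-4036753 for Gstp1 and chr19:4040988-4041047 for Gstp2, on the minus strand of GRCm38, in coding exons of the GENCODE annotation. Capitals mark the 5 bases at which the genes differ.
Gstp1: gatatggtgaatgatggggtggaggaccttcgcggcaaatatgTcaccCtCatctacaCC
Gstp2: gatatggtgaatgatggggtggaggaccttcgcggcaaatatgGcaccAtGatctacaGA
Along their exons, 49.1% of the 50-base windows of Gstp2 recur in Gstp1, and 33.7% of those of Gstp1 recur in Gstp2. Counts of Gstp2 are therefore uncertain, since how reads that match both genes were counted is not given in the sources used here.

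Gstp3, the third gene of the group, shares no 50-base window with another gene and is 73.7% identical to Gstp1 over the coding sequence. It was at 0.245 and 1.22 CPM in the aged and 6.93 and 0.528 CPM in the young samples. Young sample 1 stood far above the other 3, and young sample 2 lay between the aged samples. The log2 fold change of -2.34 (SE 1.47) turned to 0.48 without young replicate 1. Markers of dividing cells were also highest in young sample 1, summing to 93.4 CPM there against 10.7 and 31.6 CPM in the aged samples and 28.2 CPM in young sample 2, with none of the 5 at 0, and their part was not tested.

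Gsta4, the alpha transferase with high activity towards 4-hydroxynonenal, an aldehyde formed when lipids oxidise, was at 26.5 and 26.7 CPM in the aged and 14.6 and 17.6 CPM in the young samples. The aged replicates were almost equal and lay above both young samples. The means were 26.6 ± 0.149 and 16.1 ± 2.16 CPM (SD, n = 2), and the log2 fold change was 0.73 (SE 0.18), with an adjusted p of 0.409 in edgeR's quasi-likelihood test and 0.0573 in DESeq2. Of the other alpha genes, Gsta3 overlapped between the ages, Gsta2 had 7 to 17 counts and Gsta1 no more than 1. In the omega class, Gsto1 lay slightly higher and Gsto2 lower in both aged samples, neither at an unadjusted p under 0.05, and the log2 fold change of Gsto1 turned from 0.10 to -0.09 with scaling by total counts.

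The membrane-bound and mitochondrial transferases comprised 4 genes, whose median log2 fold change was 0.62. Mgst3 (ENSMUSG00000026688, chr1:167371966-167393841, minus strand), a microsomal enzyme with transferase and peroxidase activity, was at 78.3 and 63.9 CPM in the aged and 34.5 and 28.6 CPM in the young samples. Its aged values were all above its young ones, with means of 71.1 ± 10.1 and 31.6 ± 4.18 CPM (SD, n = 2). This 2.25-fold difference corresponds to a log2 fold change of 1.17 (SE 0.19), with an adjusted p of 0.360 in edgeR's quasi-likelihood test and 5.91e-04 in DESeq2.

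Mgst1, which protects membranes from lipid peroxides and had the highest level per exon length of the 24 transferases (141 CPM per kb), was at 302 and 366 CPM in the aged and 218 and 251 CPM in the young samples. Gstk1, the mitochondrial and peroxisomal kappa transferase, was at 24.4 and 20.3 CPM against 14.2 and 12.8 CPM. Both were higher in both aged samples, with log2 fold changes of 0.51 (SE 0.18) and 0.73 (SE 0.19) and adjusted p-values in edgeR's quasi-likelihood test of 0.469 and 0.417. Mgst2, which can also make leukotriene C4, stood apart at 8.87 and 16.5 CPM in the aged and 28.5 and 10.6 CPM in the young samples. As for Gstp3, young sample 1 was the highest, and the log2 fold change of -0.62 (SE 0.60) turned to 0.26 without it.

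**Figure D2:**
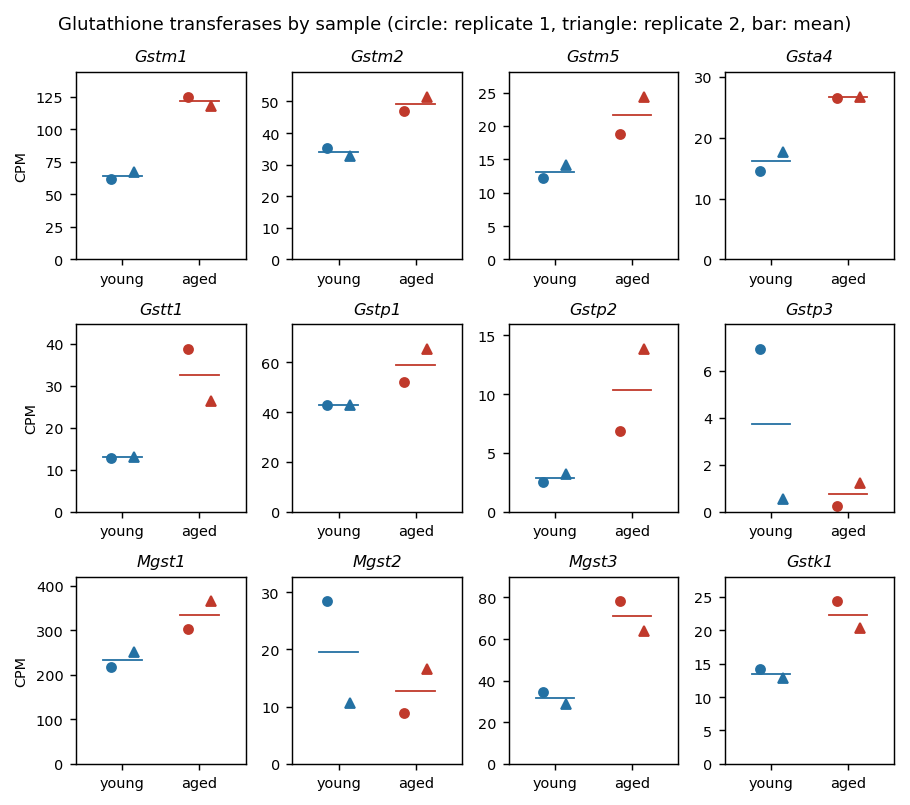
Levels of 12 glutathione transferase genes in CPM (vertical axes, each starting at 0) in the 2 young and 2 aged samples, with circles for replicate 1, triangles for replicate 2 and bars for the mean. In 10 panels both aged samples lie above both young samples, such as Gstm1 at 125 and 118 against 61.6 and 67.3 CPM. In the panels of Gstp3 and Mgst2, young replicate 1 is the highest point.

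The glutathione peroxidases held the 2 highest levels per exon length of all the enzymes. Of their 6 genes tested, 4 overlapped between the ages (12118 of 22485 among all genes tested). Their median log2 fold change was 0.15, and -0.034 with scaling by total counts. Gpx3, the secreted plasma peroxidase that fat cells and kidney release, had the highest level of all 56 enzymes per exon length, with 605 CPM per kb over the 4 samples. It was at 1476 and 883 CPM in the aged and 709 and 1320 CPM in the young samples. The ages overlapped, and the replicates of each age differed more than the ages did, with means of 1179 ± 419 and 1014 ± 432 CPM (SD, n = 2). Its log2 fold change of 0.22 (SE 0.45) turned to -0.21 without aged replicate 1 and to -0.16 without young replicate 1. The sum of the 5 plasma and B cell markers was highest in the 2 samples in which Gpx3 was low. It was 146 CPM in aged sample 2 and 240 CPM in young sample 1. In aged sample 1 and young sample 2 it was 11.7 and 1.57 CPM. The markers did not move together, as 2 had log2 fold changes above 0 and 3 below, and 1 was higher in both aged samples. None of these 5 markers was at 0, and their part was not tested.

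Gpx4, which reduces lipid peroxides within membranes and restrains ferroptosis, came second per exon length with 195 CPM per kb. It was at 282 and 409 CPM in the aged and 330 and 326 CPM in the young samples, which lay between the aged ones. Its log2 fold change of 0.07 (SE 0.24) turned to -0.22 without aged replicate 2 and to -0.12 with scaling by total counts, and 34.7% of its 50-base windows recur in the pseudogene Gpx4-ps2. Gpx1, the abundant cytosolic peroxidase, was at 162 and 131 CPM against 134 and 106 CPM, and the ages overlapped. Its log2 fold change of 0.29 (SE 0.20) was 0.11 without aged replicate 1 and also with scaling by total counts.

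Gpx8, a peroxidase of the endoplasmic reticulum, was 1 of the 2 enzymes that were lower in both aged samples, the other being Gsto2. It was at 22.4 and 29.6 CPM in the aged and 35.3 and 36.3 CPM in the young samples, means of 26.0 ± 5.09 and 35.8 ± 0.688 CPM (SD, n = 2). The log2 fold change was -0.46 (SE 0.20), with an adjusted p of 0.503 in edgeR's quasi-likelihood test. It stayed below 0 under every alternative computed and was -0.29 without aged replicate 1. As the ages of Gpx8 did not overlap, this sign was nearly fixed beforehand with 1 sample left out and adds no support. The collagen genes Col1a1 and Col1a2, markers of fibroblasts, were likewise lower in both aged samples, at 503 and 350 CPM against 1213 and 1368 CPM for Col1a1, whereas the other 3 of the 5 fibroblast markers were higher in both. The whole list summed to 1586 and 1175 CPM in the aged and 2264 and 2556 CPM in the young samples, with no marker at 0, and its part was not tested. Gpx7 was higher in both aged samples, Gpx2 had 6 to 13 counts, and Gpx5 and Gpx6, peroxidases known from the epididymis and the olfactory epithelium, had 0 counts in every sample, which allows up to 0.0407 CPM in the shallowest library.

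The peroxiredoxins, which reduce hydrogen peroxide with electrons from thioredoxin, had small log2 fold changes. Over the 6 peroxiredoxins and sulfiredoxin the median log2 fold change was 0.12, and -0.065 with scaling by total counts. Prdx3, the mitochondrial form and the highest of the family per exon length at 76.7 CPM per kb, was at 96.0 and 133 CPM in the aged and 107 and 117 CPM in the young samples. Prdx1, the main cytosolic form, was at 166 and 225 CPM against 176 and 183 CPM. For both genes the young samples lay between the aged ones. Their log2 fold changes of 0.04 (SE 0.21) and 0.12 (SE 0.20) turned to -0.22 and -0.11 without aged replicate 2 and to -0.15 and -0.065 with scaling by total counts.

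Srxn1, sulfiredoxin, which repairs over-oxidised peroxiredoxins and is a classic Nrf2 target, was at 22.0 and 39.9 CPM in the aged and 20.9 and 23.7 CPM in the young samples. Only aged sample 2 stood above the rest, and the log2 fold change of 0.47 (SE 0.34) turned to -0.022 without it. Prdx5 and Prdx6, which act in several compartments and on phospholipid peroxides, were higher in both aged samples, and Prdx6 was at 144 and 158 CPM against 117 and 142 CPM. Prdx2 and Prdx4 overlapped between the ages. Without a known strand setting, Prdx5 reads over exons of Trmt112 on the other strand cannot be told apart from reads of Trmt112. Those exons cover 15.5% of the 50-base windows of Prdx5.

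All 4 superoxide dismutase and catalase genes had log2 fold changes above 0, from 0.26 to 0.74, also with scaling by total counts. Sod1, the cytosolic copper-zinc enzyme, was at 212 and 216 CPM in the aged and 170 and 159 CPM in the young samples. The replicates were close, with means of 214 ± 2.72 and 165 ± 7.78 CPM (SD, n = 2), and the ages did not overlap. It was the only gene of the 4 at an unadjusted p under 0.05, with a log2 fold change of 0.38 (SE 0.13) and an adjusted p of 0.465 in edgeR's quasi-likelihood test.

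Cat, the peroxisomal catalase and the highest of the family per exon length at 109 CPM per kb, was at 395 and 283 CPM in the aged and 242 and 217 CPM in the young samples. Sod3, the secreted extracellular dismutase, was at 194 and 123 CPM against 103 and 86.9 CPM. Both were higher in both aged samples and highest in aged sample 1. The log2 fold changes were 0.56 (SE 0.22) and 0.74 (SE 0.27), and without aged replicate 1 they were 0.29 and 0.36. Aged sample 1 was also the sample with the highest sum of adipocyte markers, as given above. Sod2, the mitochondrial manganese enzyme, was at 157 and 200 CPM against 141 and 158 CPM, with the lower aged sample just under the higher young one, and 17.6% of its 50-base windows recur in AC166110.4.

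The 4 enzymes that make and regenerate glutathione overlapped between the ages (12118 of 22485 among all genes tested), with log2 fold changes between -0.11 and 0.04. Gclc, the catalytic subunit of glutamate-cysteine ligase, the rate-limiting step of glutathione synthesis, was at 99.0 and 103 CPM in the aged and 85.5 and 133 CPM in the young samples. Gclm, its modifier subunit, was at 45.9 and 62.7 CPM against 42.3 and 73.8 CPM. For both subunits young sample 2 was the highest and young sample 1 the lowest, with the aged samples between. The log2 fold changes of -0.11 (SE 0.25) and -0.10 (SE 0.34) turned to 0.25 and 0.37 without young replicate 2. The 7 markers of luminal epithelium followed the same order, summing to 2132 CPM in young sample 2, 865 CPM in young sample 1 and 1476 and 1475 CPM in the aged samples, with none at 0, and their part was not tested. Gss, glutathione synthetase, and Gsr, glutathione reductase, overlapped between the ages as well.

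In the thioredoxin system the median log2 fold change was 0.12, and -0.066 with scaling by total counts. Txn1, cytosolic thioredoxin, was at 50.03 and 55.5 CPM in the aged and 52.9 and 44.5 CPM in the young samples, and the ages overlapped. Txn2, its mitochondrial counterpart, was at 94.6 and 103 CPM against 80.9 and 82.7 CPM. Txnrd3, a reductase of thioredoxin and glutathione known from testis, was at 18.1 and 17.1 CPM against 11.6 and 13.6 CPM. The last 2 did not overlap and had log2 fold changes of 0.27 (SE 0.12) and 0.48 (SE 0.19), with adjusted p-values of 0.510 and 0.487 in edgeR's quasi-likelihood test. Txnrd1 and Txnrd2, the cytosolic and mitochondrial reductases, overlapped.

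Nfe2l2 (ENSMUSG00000015839, chr2:75675513-75704641, minus strand), which encodes Nrf2, was at 86.6 CPM in both aged samples and at 59.99 and 63.1 CPM in the young samples. The aged replicates were equal to 3 digits and the ages were apart, with a log2 fold change of 0.49 (SE 0.12), an adjusted p of 0.406 in edgeR's quasi-likelihood test and 0.139 in DESeq2. Over all alternatives computed it lay between 0.31, with scaling by total counts, and 0.54, without young replicate 2. Keap1, the adaptor that sends Nrf2 to degradation, was at 58.7 and 70.1 CPM in the aged and 65.7 and 53.8 CPM in the young samples. Its ages overlapped, and its log2 fold change of 0.11 (SE 0.18) turned to -0.076 with scaling by total counts. Exons of Gm16754 on the other strand cover 7.78% of its 50-base windows.

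The 2 Nrf2 targets of the group differed from each other. Nqo1, a quinone reductase often read as a marker of Nrf2 activity, was at 8.02 and 10.3 CPM in the aged and 3.88 and 6.80 CPM in the young samples, which did not overlap. The means were 9.15 ± 1.59 and 5.34 ± 2.07 CPM (SD, n = 2), and the log2 fold change of 0.78 (SE 0.37) had an adjusted p of 0.521 in edgeR's quasi-likelihood test. It was 0.43 without young replicate 1 and 1.25 without young replicate 2. Hmox1, haem oxygenase 1, was at 14.7 and 14.0 CPM in the aged and 12.9 and 14.8 CPM in the young samples. These values overlapped, and the log2 fold change of 0.05 (SE 0.19) turned to -0.13 with scaling by total counts.

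**Figure D3:**
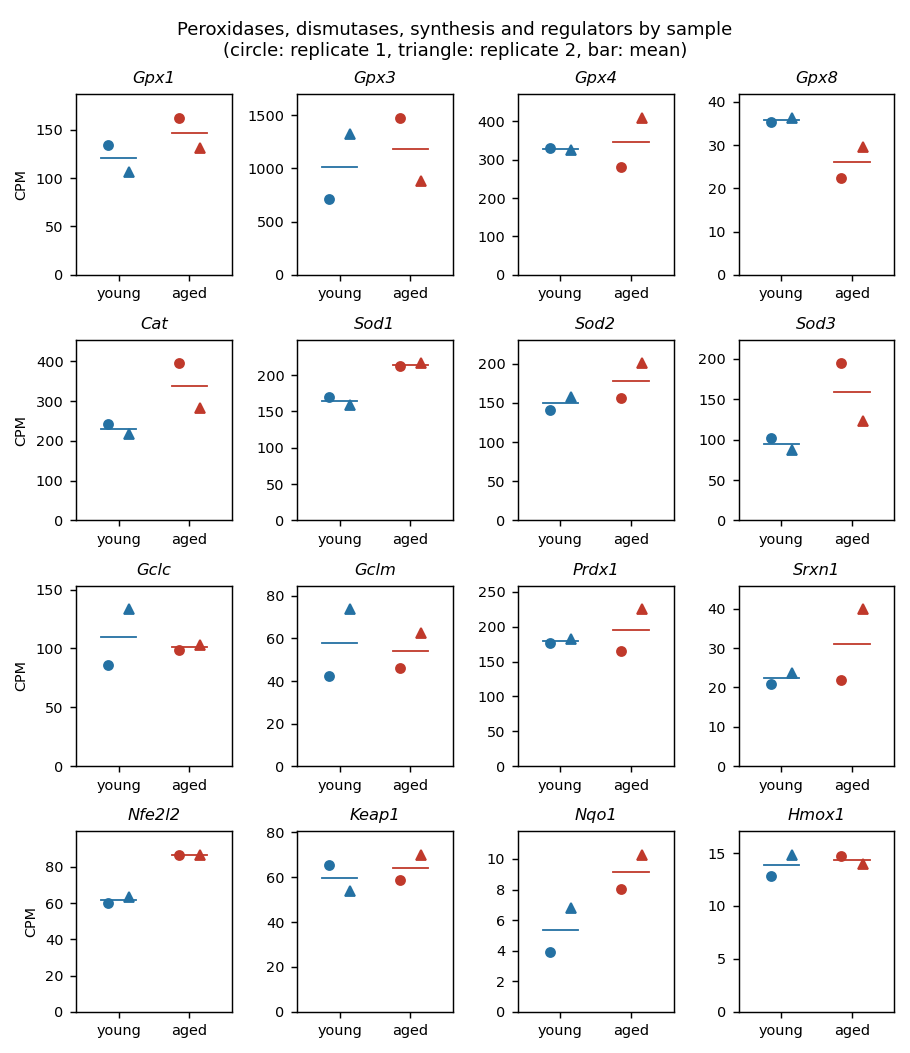
Levels of 16 peroxidase, dismutase, catalase, synthesis, peroxiredoxin and Nrf2 pathway genes in CPM (vertical axes from 0) in the 2 young and 2 aged samples, with circles for replicate 1, triangles for replicate 2 and bars for the mean. Nfe2l2 and Sod1 show tight replicates with the aged pair above the young pair, whereas Gpx3 and Gclm differ more between replicates than between ages. For Gclc only the young replicates differ more than the ages. Gpx8 is lower in both aged samples.

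Across samples, the enzymes with non-overlapping ages were not all high in the same aged sample. Gstt1, Mgst3, Cat and Sod3 were highest in aged sample 1, and Gstp2, Gstm5, Mgst1 and Nqo1 in aged sample 2. The 10 transferases of the plot of levels by sample that separated the ages and Nfe2l2, Sod1, Cat, Sod3 and Nqo1 kept log2 fold changes above 0 when any 1 sample was left out. As their ages did not overlap, this sign was nearly fixed beforehand and adds no support.

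**Figure D4:**
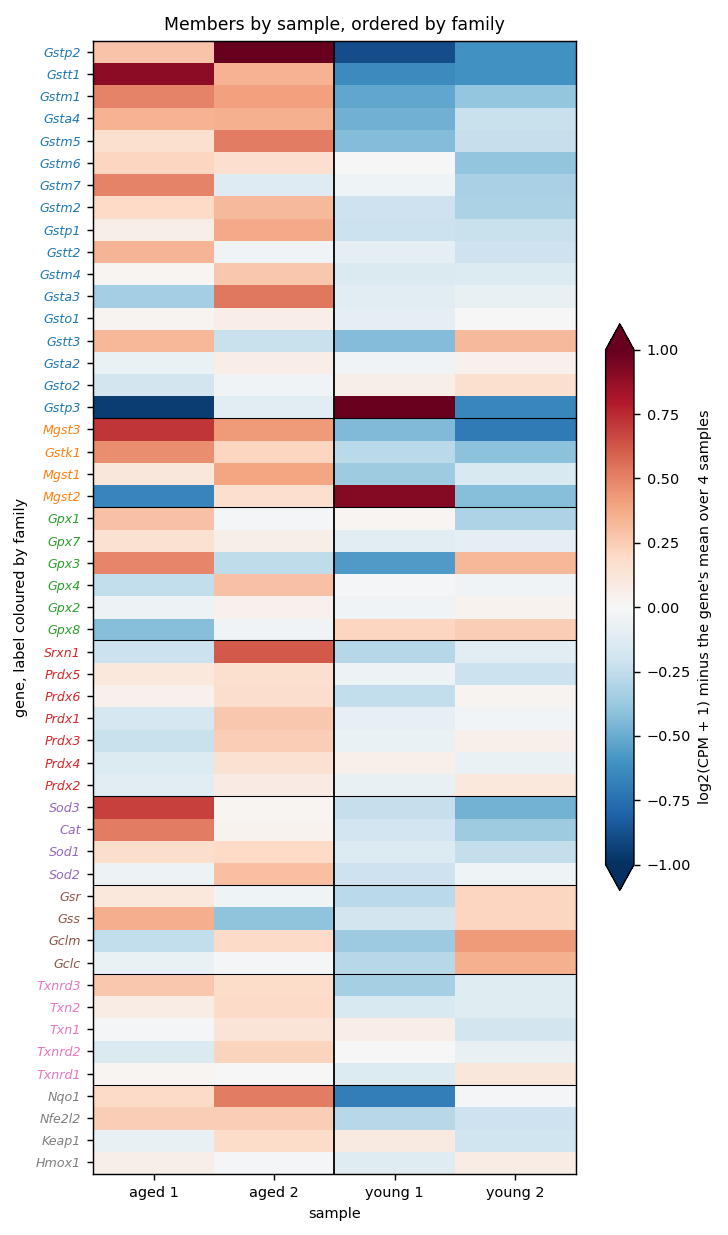
Each of the 51 enzymes tested (rows, grouped by family) in the 4 samples (columns), coloured by log2(CPM + 1) minus the gene's own mean over the samples, from -1 (blue) to 1 (red). Of the 21 transferase rows, 14 have both aged columns above both young columns, whereas in the rows of Gstp3 and Mgst2 young sample 1 is the darkest red. In the rows of Gclc and Gclm young sample 2 is the highest.

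Nrf2 acts through the antioxidant response element, so promoters were searched for its core TGACNNNGC on both strands (GCNNNGTCA on the other), with N for any base. Promoters were 300 bases each, from 250 before to 50 after the RefSeq start on GRCm38.p6, and 49 of the 56 enzymes had at least 1. The core occurred in 10 of the 49 (20.4%), compared with 3781 of 27025 genes with a promoter (14.0%). Per promoter the shares were 10 of 62 (16.1%) and 4071 of 32851 (12.4%). Of the enzymes at an unadjusted p under 0.05 that had a promoter, 4 of 10 held it, and of the others tested 6 of 34. The first 4 are shown because they combine the core with a higher level in both aged samples, and Gclm, Prdx1 and Txnrd1 because they hold the core while their ages overlapped. Each stretch is printed along the gene's strand with the core in capitals.
Gstm5, chr3:107895802-107895830, plus strand: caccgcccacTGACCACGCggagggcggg
Mgst1, chr6:138140461-138140489, plus strand: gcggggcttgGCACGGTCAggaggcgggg
Nfe2l2, chr2:75704885-75704913, minus strand: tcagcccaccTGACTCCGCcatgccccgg
Sod1, chr16:90220696-90220724, plus strand: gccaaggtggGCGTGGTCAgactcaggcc
Gclm, chr3:122245413-122245441, plus strand: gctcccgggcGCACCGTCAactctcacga
Prdx1, chr4:116685456-116685484, plus strand: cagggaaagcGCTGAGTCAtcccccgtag
Txnrd1, chr10:82859104-82859132, plus strand: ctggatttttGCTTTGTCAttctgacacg
The stretches lie upstream of the start of the promoter they come from, and those of Gstm5, Mgst1 and Nfe2l2 also touch an exon of another annotated transcript. Gsta3, Gstm7 and Srxn1 held the core too. A match of letters is a description of the promoter and no evidence of binding, and a promoter without one can carry the element further away.

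The enzymes work beside other genes, of which 134 were listed in 11 groups and 131 tested. In edgeR's quasi-likelihood test 0 of them were called, 19 were higher and 3 lower in the aged MFP at an unadjusted p under 0.05, and DESeq2 called 6 higher and 1 lower. Their median log2 fold change was 0.18, with 88 above and 43 below 0, and 56 lay higher and 14 lower in both aged samples. Over all genes tested, 7.24% were higher and 3.31% lower at an unadjusted p under 0.05, 3.24% and 0.71% were called by DESeq2, 47% were above 0, and 23.3% lay higher and 22.8% lower in both aged samples.

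Glutathione import and breakdown had the highest median log2 fold change of the groups, 0.46 over 14 genes. Chac1, which cleaves glutathione in the cytosol and is induced by amino acid stress, was at 10.4 and 10.6 CPM in the aged and 2.71 and 3.10 CPM in the young samples. Dpep1, a dipeptidase that completes glutathione breakdown outside the cell, was at 53.6 and 46.9 CPM against 16.4 and 21.7 CPM. Slc3a2, the heavy chain of the cystine importer, was at 133 and 143 CPM against 80.9 and 93.4 CPM. These 3 were higher in both aged samples, with log2 fold changes of 1.85 (SE 0.23), 1.40 (SE 0.21) and 0.66 (SE 0.14). DESeq2 gave adjusted p-values of 2.83e-10, 7.71e-05 and 0.0594, and edgeR's quasi-likelihood test 0.360, 0.360 and 0.392. Of the genes in the group, 7 were higher in both aged samples and 0 lower (23.3% and 22.8% of all genes tested). Slc7a11, the light chain that pairs with Slc3a2 in the importer, was at 0.587 and 3.40 CPM in the aged and 27.7 and 0.339 CPM in the young samples. It was high only in young sample 1, the ages overlapped, and its log2 fold change was -2.81 (SE 2.06).

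Enzymes that supply NADPH, the electron source of both systems, numbered 13, of which 4 lay higher and 2 lower in both aged samples, shares near those of all genes tested (23.3% and 22.8%). The group summed to 3274 and 9756 CPM in the aged and 5840 and 6664 CPM in the young samples. The young sums thus lay between the aged ones. Me3, mitochondrial malic enzyme, was at 9.65 and 10.5 CPM in the aged and 3.06 and 5.41 CPM in the young samples, and Idh1, cytosolic isocitrate dehydrogenase, at 240 and 226 CPM against 176 and 144 CPM. Pgls, of the pentose phosphate pathway, was at 33.8 and 35.7 CPM against 46.3 CPM in both young samples. Me3 and Idh1 were thus higher and Pgls lower in both aged samples, at log2 fold changes of 1.25 (SE 0.36), 0.54 (SE 0.17) and -0.42 (SE 0.14), and none had an adjusted p below 0.426 in edgeR's quasi-likelihood test.

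Among the methionine sulfoxide reductases, which repair oxidised methionine, 3 of 4 were higher in both aged samples (23.3% of all genes tested). Msrb3 was at 110 and 112 CPM against 56.2 and 74.7 CPM. Msrb2 was at 12.0 and 12.8 CPM against 8.12 and 8.56 CPM. Of 18 glutaredoxins and thioredoxin partners, 4 were higher and 2 lower in both aged samples (23.3% and 22.8% of all genes tested). Only Sesn2, a stress-induced sestrin, reached an unadjusted p under 0.05, at 34.4 and 21.7 CPM against 17.0 and 15.9 CPM. Msrb3, Msrb2 and Sesn2 did not overlap between the ages, with log2 fold changes of 0.76 (SE 0.19), 0.57 (SE 0.19) and 0.77 (SE 0.28). Without aged replicate 1 the last, that of Sesn2, was 0.39.

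Of the 12 partners and repressors of Nrf2, 3 were higher and 2 lower in both aged samples (23.3% and 22.8% of all genes tested). Their log2 fold changes lay above 0 for 6 and below 0 for 6. Nfe2l1 is a related factor that also binds antioxidant response elements and controls proteasome genes. It was at 566 and 557 CPM in the aged and 354 and 350 CPM in the young samples. Sqstm1, the autophagy receptor that can sequester Keap1, was at 243 and 328 CPM against 187 and 164 CPM. Dpp3, which also binds Keap1, was at 41.5 and 46.9 CPM against 62.1 and 56.1 CPM. The first 2 were higher and Dpp3 lower in both aged samples, and DESeq2 called Nfe2l1 with an adjusted p of 0.00735. The log2 fold changes were 0.67 (SE 0.16), 0.70 (SE 0.21) and -0.42 (SE 0.15), with adjusted p-values of 0.404, 0.436 and 0.465 in edgeR's quasi-likelihood test.

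Fth1, the ferritin heavy chain that stores iron, was at 617 and 630 CPM in the aged and 416 and 401 CPM in the young samples. Its replicates were close and its ages apart, with a log2 fold change of 0.61 (SE 0.16), an adjusted p of 0.417 in edgeR's quasi-likelihood test and 0.0232 in DESeq2. Within haem and iron handling, 5 of 7 genes were higher and 1 lower in both aged samples (23.3% and 22.8% of all genes tested).

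Among 22 other conjugating and carbonyl-reducing enzymes, 14 were higher and 1 lower in both aged samples (23.3% and 22.8% of all genes tested), and 20 had a log2 fold change above 0 (47% of all genes tested). Aldh1a1, a retinaldehyde and lipid aldehyde dehydrogenase, was at 66.2 and 67.2 CPM in the aged and 25.8 and 27.5 CPM in the young samples. Aldh2, the mitochondrial aldehyde dehydrogenase, was at 452 and 483 CPM against 319 and 308 CPM, and Ephx1, microsomal epoxide hydrolase, at 62.5 and 69.7 CPM against 51.3 and 47.9 CPM. The 3 did not overlap between the ages. For Aldh1a1 the log2 fold change was 1.32 (SE 0.13), with an adjusted p of 0.360 in edgeR's quasi-likelihood test and 3.95e-09 in DESeq2. Aldh2 and Ephx1 had log2 fold changes of 0.58 (SE 0.15) and 0.41 (SE 0.14).

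For the 6 exporters of glutathione conjugates the median log2 fold change was 0.01. In both aged samples 2 were higher and 1 lower (23.3% and 22.8% of all genes tested). The largest difference was in Abcc2, which was near the detection floor in aged sample 1 at 0.0978 CPM and otherwise at 0.786 CPM in the aged and 1.20 and 1.82 CPM in the young samples. Of the 14 oxidant-forming enzymes tested, 6 were higher and 1 lower in both aged samples, beside 23.3% and 22.8% of all genes tested. Maob, a monoamine oxidase of the outer mitochondrial membrane that releases hydrogen peroxide, was at 37.8 and 41.3 CPM against 19.8 and 23.4 CPM. It did not overlap between the ages, and its log2 fold change of 0.87 (SE 0.17) had an adjusted p of 0.374 in edgeR's quasi-likelihood test and 0.00905 in DESeq2.

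Selenoprotein genes matter to this set because several peroxidases and the thioredoxin reductases carry selenocysteine. Of 15 tested genes of selenoprotein synthesis and transport, 5 were higher and 3 lower in both aged samples (23.3% and 22.8% of all genes tested). Their log2 fold changes lay above 0 for 8 and below 0 for 7. Selenop, the secreted selenium carrier, was at 489 and 550 CPM in the aged and 380 and 304 CPM in the young samples, and Selenow, a small thioredoxin-like protein known from muscle, at 177 and 217 CPM against 125 and 100 CPM. Selenom, of the endoplasmic reticulum, was at 13.7 and 14.9 CPM against 8.51 and 10.5 CPM. Secisbp2, which brings selenocysteine into proteins, was at 32.9 and 32.1 CPM against 47.8 and 40.9 CPM. The first 3 were higher and Secisbp2 lower in both aged samples, with log2 fold changes of 0.60 (SE 0.20), 0.81 (SE 0.20), 0.59 (SE 0.21) and -0.45 (SE 0.16). Lrp8, a receptor for Selenop, was at 0.819 and 1.55 CPM against 17.9 and 2.15 CPM, so that 1 young sample held most of its difference. DESeq2 called Lrp8 lower with an adjusted p of 0.0366, and its log2 fold change of -3.08 (SE 1.14) was -0.86 without young replicate 1. Of 6 metallothioneins and copper chaperones tested, 3 were higher and 1 lower in both aged samples (23.3% and 22.8% of all genes tested). Mt1, a metallothionein that binds zinc and copper, was at 22.2 and 18.4 CPM against 14.6 and 12.6 CPM, a log2 fold change of 0.58 (SE 0.20).

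**Figure D5:**
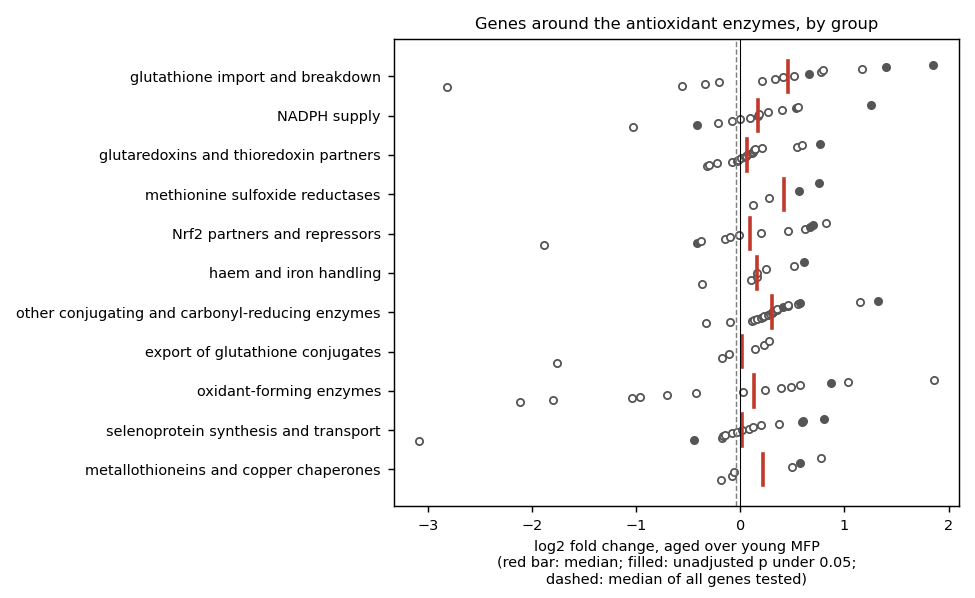
Log2 fold change (aged over young MFP, horizontal axis) of the 131 genes tested around the antioxidant enzymes, in 11 groups. Each circle is a gene, filled where the unadjusted p in edgeR was under 0.05, red bars are the medians of the groups and the dashed line is the median of all genes tested (-0.04). Import and breakdown of glutathione has the highest median (0.46) and export of conjugates the lowest (0.01).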

How the data were processed

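Total RNA of whole MFP was depleted of ribosomal RNA and sequenced with a strand-specific kit after amplification, without molecular identifiers. The authors deposited raw counts per gene, not normalized, in 1 column per sample. Per the labels, featureCounts, R 3.6.1 and the builds GRCm38 and hg38 were used. The aligner, annotation and strand setting are not given in the sources used here.

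Counts were filtered with filterByExpr, scaled by TMM and tested in edgeR 4.0.16 (glmQLFit, glmQLFTest, age as the only term, Benjamini-Hochberg over 22485 genes) under R 4.3.3 with limma 3.58.1. DESeq2 1.42.0 was the alternative. Standard errors were computed as the absolute log2 fold change over the square root of F. Log2 CPM used a prior count of 2. The fit was tested on simulated data. Floors of 3 counts cover counting error only, and p-values measure the spread between these samples, which may be technical where animals were not separate.

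Positions, exon lengths (merged exons) and shared windows came from GENCODE M21 (GRCm38), which held 55227 of the 55487 identifiers. Promoters came from RefSeq (GRCm38.p6). No column of values was left without a sample.

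The members, though matched by symbol, and the gene lists were chosen with earlier results of these data known. Values in every sample were given for the highest member of each family per exon length, members with an unadjusted p under 0.05, called by DESeq2 or with an absolute log2 fold change of 1 or more, and Nfe2l2, Keap1, Nqo1 and Hmox1. Of the listed pathway genes, those with an unadjusted p under 0.05 or called by DESeq2 were named, otherwise the largest difference of the group. Gstp1, Gpx4, Gpx1, Gpx8, Sod3, Sod2, Mgst2, Gsto1, Gclm, Srxn1, Txnrd3, Prdx1, Txn2, Prdx6, Col1a1, Slc7a11 and Nnt were added to these once values had been seen. Alternatives were other scalings (RLE, upper quartile, total counts), no filter, a minimum of 10 counts per sample, leaving out each sample, a replicate block and DESeq2, with a crossed block added after seeing the data.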

Additional observations from a re-analysis of the deposited data

How the results depend on the processing

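No enzyme was called by edgeR's quasi-likelihood test under any alternative, and DESeq2 called 4. With scaling by total counts, 5 of 51 enzymes were higher and 1 lower at an unadjusted p under 0.05 in edgeR's quasi-likelihood test. Of all 22485 genes tested, 2752 were under 0.05 with that scaling, in either direction. It left 4 enzymes lower in both aged samples, a count with no share of all genes beside it for that scaling. The family medians of the log2 fold change were then -0.034 (glutathione peroxidases), -0.065 (peroxiredoxins with sulfiredoxin), 0.30 (dismutases with catalase), -0.066 (thioredoxins) and 0.12 (Nfe2l2, Keap1, Nqo1 and Hmox1). The sign turned for 14 enzymes. Among the genes given by sample these were Gpx4 (-0.12), Prdx3 (-0.15), Prdx1 (-0.065), Txn1 (-0.066), Keap1 (-0.076) and Hmox1 (-0.13). The others were Gss, Gsr, Prdx4, Txnrd1, Txnrd2, Gstt3, Gpx2 and Gsto1. Upper quartile scaling gave a median of 0.44 for the dismutases. No source says that replicate numbers pair the samples, and deviations of same-numbered samples correlated at -0.48 over the genes tested. The replicate block left 7 enzymes higher at an unadjusted p under 0.05 and called 0, and the crossed replicate block, added after seeing the data, left 9 higher and 1 lower and called 0. Of all 22485 genes tested, 1346 were under 0.05 with the replicate block and 2494 with the crossed block. Counts without overlap come from no fit, so neither block nor DESeq2 applies to them. Fits that leave out 1 sample rest on a lone sample in 1 age. The number of all genes under 0.05 varied widely among those fits. Their counts of enzymes at an unadjusted p under 0.05, given next, therefore lend the enzymes no support. Leaving out 1 sample at a time gave 5 to 11 enzymes higher and 0 to 1 lower at an unadjusted p under 0.05, with 5 without aged replicate 1 or aged replicate 2, and 28 to 36 higher and 3 to 13 lower without overlap, as a lone sample separates more easily. The family medians then ran from -0.041 to 0.21 (peroxidases), -0.11 to 0.27 (peroxiredoxins), 0.37 to 0.57 (dismutases), 0.039 to 0.26 (thioredoxins), -0.30 to 0.29 (synthesis) and 0.29 to 0.35 (Nfe2l2, Keap1, Nqo1 and Hmox1), and single genes from -0.21 to 0.75 (Gpx3), -0.44 to 0.37 (Gclm), -0.40 to 0.25 (Gclc), -0.051 to 0.17 (Hmox1), -0.22 to 0.31 (Gpx4), -0.22 to 0.24 (Prdx3), -0.11 to 0.32 (Prdx1), -0.022 to 0.83 (Srxn1), -0.025 to 0.26 (Keap1), -3.92 to 0.48 (Gstp3) and -1.15 to 0.26 (Mgst2). Without a change of sign, Sod2 ran from 0.069 to 0.41, Prdx6 from 0.084 to 0.37 and Gstp1 from 0.28 to 0.60, and with scaling by total counts Sod1 was 0.20, Txn2 0.089, Gstm2 0.35 and Mgst1 0.33. The cause of these shifts was not tested. With 2 samples per age, a difference within the spread shown was not detectable, and enzymes near the floor (Gstm3, Gsta1, Gpx5 and Gpx6) allow no comparison.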

Other observations

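Nnt, the mitochondrial transhydrogenase that makes NADPH and carries a known deletion in C57BL/6J, was at 2.63 and 2.49 CPM in the aged and 3.18 and 2.74 CPM in the young samples, low in all 4 and a log2 fold change of -0.21 (SE 0.27). Counts per gene do not show which exons were read, and the sources differ on the substrain, as given above.

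Keratinocyte markers, which would mark skin taken with the fat pad, summed to 1.33 and 1.61 CPM in the aged and 1.32 and 1.40 CPM in the young samples, and Flg was at 0 in all 4. Macrophage markers summed to 243 and 286 CPM against 188 and 164 CPM, basal epithelial markers to 352 and 393 CPM against 123 and 372 CPM, and endothelial markers to 632 and 463 CPM against 511 and 494 CPM. Of these lists, 3 of 6 macrophage, 3 of 5 basal and 0 of 4 endothelial markers were higher in both aged samples (23.3% of all genes tested). The part of these markers in the levels of the antioxidant enzymes was not tested.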
